A study of Mus musculus with 20 samples.

Results

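The response to systemic lipopolysaccharide (LPS) was examined in tdT+ dural CNS-associated macrophages (dCAMs), the border macrophages of the outermost meningeal layer, of Ccr2CreERT2 R26tdT mice. All mice, those given PBS included, had received the CSF1R inhibitor BLZ945 at 200 mg/kg on 7 consecutive days, which depletes macrophages, and tamoxifen at 2 mg per day on the last gavage day and again 2 and 4 days later. At 8 weeks after the last gavage, in mice that had been young adults at its start, LPS at 2.5 mg/kg or PBS was injected, and the dura mater was taken 12 h later. Bulk RNA was sequenced from tdT+ and tdT- dCAMs of 5 LPS mice (54, 56, 59, 60 and 61) and 5 PBS mice (174, 175, 177, 178 and 179), 1 library of each population per mouse and 20 libraries in all. Inducible Cre driven by Ccr2 marks cells that expressed Ccr2 around the tamoxifen doses and their progeny, so a tdT+ cell is defined by its history and not by its state at harvest. Cells had been sorted as CD45int CD11b+ CD206int-high, and the numbers of the LPS and PBS mice come from separate ranges, so that treatment and any difference between those ranges cannot be told apart.

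The genes described are those with at least 10 counts in all 5 tdT+ LPS libraries or in all 5 tdT+ PBS libraries. They numbered 10336 of the 33243 gene symbols counted. Of these, 7970 reached the minimum on both sides, 2123 in the LPS libraries only and 243 in the PBS libraries only. The last 2 sets were chosen by the side on which they are high, so their calls are counted apart, here and in the gene lists, and nothing is read from their direction.

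As background, LPS is bound by CD14 and MD-2 and recognised by TLR4, which signals through MyD88 and TRIF. The MyD88 arm activates NF-kB and AP-1 and with them genes of cytokines, chemokines and acute phase proteins. The TRIF arm induces type I interferon, which acts back on the cell through the factors STAT2 and IRF9 at interferon-stimulated response elements (ISRE). Border macrophages at rest are known for scavenger receptors, complement C1q, lysosomal enzymes and, in the dura, abundant MHC class II.

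Depth differed with treatment. The tdT+ LPS libraries held 12073566 to 18925908 counts and the PBS libraries 6017650 to 12208203, a difference in means of 5486400 (two-sided exact permutation test, p = 0.0159). LPS libraries had 11250 to 11987 genes with at least 10 counts and PBS libraries 10024 to 11032. Levels are given as CPM, counts scaled to a common library total. Over the 7970 genes counted on both sides, the median SD of log2 CPM was 0.505 among PBS libraries and 0.276 among LPS libraries, and 80.0% of these genes varied more among the PBS libraries. In a principal component analysis of 500 highly variable genes, all 5 LPS libraries lay apart from all 5 PBS libraries on the leading axis (80.1% of the variance). All 24 listed border macrophage markers in the table were counted on at least 1 side, with summed levels of 60662 to 73723 CPM under PBS and 30589 to 38430 CPM under LPS. In bulk RNA, fewer cells of a type and less RNA per cell cannot be told apart.

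The most abundant transcripts took different shares of the counts under PBS and LPS. Cd74, the MHC class II invariant chain, took 4.20% ± 0.949 (SD, n = 5) of all counts in PBS libraries and 1.31% ± 0.180 in LPS libraries. Apoe, the lipid carrier apolipoprotein E, took 2.53% under PBS and 0.691% under LPS. Fth1, which encodes the heavy chain of ferritin, went from rank 18 at 0.550% to rank 1 at 3.48%, and Cd38, an NAD-consuming ectoenzyme, from 0.0439% to 0.603%. The lysosomal protease Ctsb, at rank 7 under PBS and rank 8 under LPS, took 0.975% and 0.621% and was not called.

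Genes were called when edgeR's quasi-likelihood test on all 20 libraries gave an adjusted p below 0.05 with a log2 fold change larger than 1 in either direction. By this rule 979 of the 16632 genes tested were called (5.89%), 560 of them higher under LPS (3.37%) and 419 lower (2.52%). Among the 7970 genes counted on both sides, 281 were called higher (3.53%) and 356 lower (4.47%), which is 7.99% in all. Their median log2 fold change was 0.02, against 0.01 over all genes tested. Of the called genes counted on both sides, 183 were over 4-fold lower and 122 over 4-fold higher, while over all genes tested, those counted on 1 side included, 246 were lower and 401 higher by this much. LPS and PBS libraries did not overlap in CPM for 2233 of these genes (28.0%), against 17.8% of all genes tested. Of the 2123 genes counted on the LPS side only, 196 were called higher (9.23%), and of the 243 counted on the PBS side only, 44 were called lower (18.1%). The fit of the 10 tdT+ libraries alone called 1019 members higher and 1025 lower, among them all 477 and all 400 of the joint fit. With mouse as a block across the paired populations, 878 were called higher and 508 lower. The scatter of mean levels shows the called genes on both sides of the diagonal. They were concentrated among abundant genes, with 434 of the 637 among the 1806 genes whose level averaged over 100 CPM across the 2 groups.

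**Figure D1:**
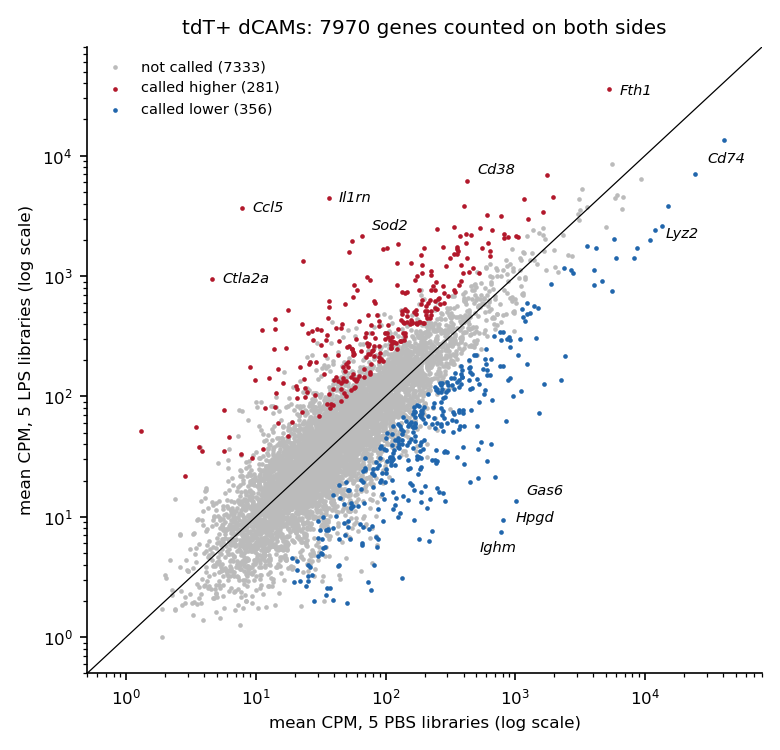
Mean CPM of 7970 genes in the 5 PBS libraries (x axis, log scale) and the 5 LPS libraries (y axis, log scale) of tdT+ dCAMs, with equal levels on the diagonal. Red points are the 281 genes called higher under LPS and blue points the 356 called lower. Fth1 and Cd38 lie above the diagonal, and Cd74, Lyz2, Gas6, Hpgd and Ighm lie below it.

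The largest increases among genes counted on both sides were those of Ccl5, Ctla2a, Il1rn, Fpr1, Cfb, Thbs1, Sod2, Fpr2, Samsn1, Ly6a, Mt2 and Tgm2. The largest decreases were those of Ighm, Hpgd, Gas6, Slc40a1, Cyp27a1, Slco2b1, Slc46a3, Ptpro, Sulf2, Fxyd2, Clec4b1 and Abca9. The upstream sequence is shown for the leading 3 of each set that have a window in the RefSeq table (GRCm38.p6), because these genes are among the largest changes. Ccl5, Ighm and Slc40a1 have no window and were passed over. Each sequence, from the window listed first, is the 250 bases before the gene start on the coding strand. Capitals mark matches, on either strand, to the NF-kB core GGGAA and the AP-1 site TGANTCA. None of the 6 windows held the ISRE core, the CRE TGACGTCA, the C/EBP site TTGCGCAA, the E-box CACGTG, the PU.1 site GAGGAAGT or the full kappaB site.
Ctla2a, chr13:60936626-60936875, minus strand: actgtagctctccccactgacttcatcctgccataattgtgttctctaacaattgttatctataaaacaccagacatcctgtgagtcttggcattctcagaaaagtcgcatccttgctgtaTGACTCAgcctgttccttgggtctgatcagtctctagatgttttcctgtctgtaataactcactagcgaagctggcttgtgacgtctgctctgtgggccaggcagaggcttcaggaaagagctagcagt
Il1rn, chr2:24336610-24336859, plus strand: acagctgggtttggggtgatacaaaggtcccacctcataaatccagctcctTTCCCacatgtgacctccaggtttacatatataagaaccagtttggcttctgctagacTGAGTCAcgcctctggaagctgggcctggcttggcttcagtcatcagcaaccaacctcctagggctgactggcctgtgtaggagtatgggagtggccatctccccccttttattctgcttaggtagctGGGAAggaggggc
Fpr1, chr17:17883940-17884189, minus strand: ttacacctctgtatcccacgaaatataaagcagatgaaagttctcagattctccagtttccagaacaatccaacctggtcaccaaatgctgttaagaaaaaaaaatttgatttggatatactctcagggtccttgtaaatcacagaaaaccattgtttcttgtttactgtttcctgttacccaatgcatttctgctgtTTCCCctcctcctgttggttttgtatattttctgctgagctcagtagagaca
Hpgd, chr8:56294302-56294551, plus strand: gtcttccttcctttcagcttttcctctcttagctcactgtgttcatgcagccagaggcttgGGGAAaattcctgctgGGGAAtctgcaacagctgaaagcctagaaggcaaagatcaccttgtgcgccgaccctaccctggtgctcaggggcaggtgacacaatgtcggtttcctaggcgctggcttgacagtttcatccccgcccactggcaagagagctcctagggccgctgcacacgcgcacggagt
Gas6, chr8:13494536-13494785, minus strand: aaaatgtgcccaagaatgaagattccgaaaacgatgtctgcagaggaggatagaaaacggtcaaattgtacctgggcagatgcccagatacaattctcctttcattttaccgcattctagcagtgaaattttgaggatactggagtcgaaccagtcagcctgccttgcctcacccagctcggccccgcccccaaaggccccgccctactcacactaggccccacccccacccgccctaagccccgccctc
Cyp27a1, chr1:74713285-74713534, plus strand: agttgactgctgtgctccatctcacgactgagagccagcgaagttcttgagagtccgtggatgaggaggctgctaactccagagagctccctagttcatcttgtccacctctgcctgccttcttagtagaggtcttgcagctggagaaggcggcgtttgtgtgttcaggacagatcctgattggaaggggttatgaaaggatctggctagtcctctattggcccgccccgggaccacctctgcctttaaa

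The 3 windows of increased genes held an AP-1 match (Ctla2a), 2 NF-kB cores with an AP-1 match (Il1rn) and 1 NF-kB core (Fpr1). The table lists 3 windows for Il1rn, of which the other 2 held 3 NF-kB cores each and no AP-1 match, and 2 for Ctla2a, of which the other also held 1 AP-1 match. Hpgd, which fell, held 2 NF-kB cores, and neither match type was present before Gas6 and Cyp27a1. Across windows of this length the NF-kB core was found before 55.9% of all 27025 genes in the table, 58.6% of the 12062 genes tested that have a window, 63.7% of the 361 called higher members with a window and 61.1% of the 311 called lower. The AP-1 site was found before 6.87%, 4.90%, 11.1% and 5.79% of these sets, and the ISRE core before 3.04%, 2.81%, 8.03% and 3.22%. Among the 6385 genes counted on both sides that have a window, the NF-kB, AP-1 and ISRE shares were 58.6%, 4.07% and 3.01%. Both called sets include members counted on 1 side only, which were chosen by the side on which they are high. These shares describe letters in the windows and were not tested.

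Ccl5, the chemokine RANTES that attracts T cells and monocytes (chromosome 11, 83525778 to 83530518 in GRCm38), stood at 10.9, 9.77, 7.73, 3.67 and 6.90 CPM in the PBS libraries and at 2317, 3676, 4817, 3560 and 4112 CPM in the LPS libraries. Its log2 fold change was 8.89 ± 1.28 (SE), with an adjusted p of 6.92e-05. Ctla2a, a cysteine protease inhibitor, rose from 1.99 to 7.23 CPM to between 568 and 1339 CPM. Ctla2a has a near-identical neighbour in its gene family, and so do Ly6a, Saa1, H2-Q7 and Bcl2a1a named further on, so reads between such copies may be split. Il1rn, the antagonist of the IL-1 receptor, was at 3.41, 75.9, 25.3, 39.8 and 37.3 CPM under PBS and at 3159, 3816, 4647, 2945 and 7712 CPM under LPS (log2 fold change 6.94 ± 0.96, adjusted p = 4.65e-05). For these 3 genes LPS and PBS libraries did not overlap.

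The receptors for formylated bacterial peptides rose together. Fpr1 went from 13.9 to 29.7 CPM to 907 to 1892 CPM, and Fpr2 from 0.843 to 21.7 CPM to 267 to 439 CPM. Cfb, complement factor B of the alternative pathway, was at 2.11, 1.27, 1.27, 1.05 and 0.767 CPM under PBS and 53.0, 52.1, 38.6, 58.2 and 56.7 CPM under LPS. The mitochondrial superoxide dismutase Sod2 had the most even increase of the 12, from 47.3 to 77.0 CPM to 1606 to 2774 CPM (log2 fold change 5.02 ± 0.38, adjusted p = 1.3e-08). Thbs1, the matricellular protein thrombospondin 1, rose by 5.15 ± 0.83 on the log2 scale, Ly6a by 4.93 ± 0.72, the metallothionein Mt2 by 4.88 ± 0.51 and the transglutaminase Tgm2 by 4.68 ± 0.74. The remaining member, the signalling adaptor Samsn1, is described with the tdT- population.

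Ighm, the immunoglobulin mu heavy chain constant gene (chromosome 12, 113418558 to 113422730), was at 1252, 649, 672, 723 and 575 CPM under PBS and at 11.8, 5.78, 6.12, 8.60 and 5.45 CPM under LPS. Ighm is itself on the B cell list and made up 774 of its mean summed level of 840 CPM under PBS, so that the sum of the list, at 626 to 1378 CPM and 23.8 to 43.3 CPM, restates Ighm. The part of B cell RNA in this change was not tested. Of the 11 B cell markers 5 were at 0 counts in every tdT+ library, Pax5 and Igkc among them, and Cd79a had at most 9 counts. Cd79b, the other abundant gene of the list, was at 32.3 to 80.2 CPM under PBS and 6.41 to 25 CPM under LPS and was not called (adjusted p = 0.205), though it was without PBS mouse 174 (log2 fold change -1.73).

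Hpgd, which inactivates prostaglandins, held 844, 822, 803, 938 and 647 CPM under PBS and 7.02, 6.19, 9.81, 12.7 and 11 CPM under LPS, the smallest SE of the 12 decreases (log2 fold change -6.43 ± 0.34, adjusted p = 7.53e-11). Gas6, the bridging ligand that ties dying cells to the receptors AXL and MERTK, was at 1004, 990, 1018, 1104 and 974 CPM under PBS and at 19.0, 25.8, 8.63, 7.35 and 6.53 CPM under LPS. Slc40a1 encodes ferroportin, the iron exporter. It went from 87.2 to 159 CPM to 0.981 to 6.57 CPM, and its call was lost without LPS mouse 54 (log2 fold change -5.19), 56 (-5.50) or 59 (-5.25). Cyp27a1, the mitochondrial sterol 27-hydroxylase, fell by 5.11 ± 0.58 on the log2 scale, the organic anion transporter Slco2b1 fell by 5.04 ± 0.55 and the lysosomal transporter Slc46a3 by 4.97 ± 1.14. The receptor phosphatase Ptpro fell by 4.91 ± 0.70 (-5.70 without LPS mouse 60), the heparan sulfatase Sulf2 by 4.81 ± 0.54, the sodium pump regulator Fxyd2 by 4.71 ± 0.49, the lectin Clec4b1 by 4.67 ± 0.61 and the lipid transporter Abca9 by 4.64 ± 0.58. All 24 genes were chosen for libraries that do not overlap between the treatments, as the plot of single libraries shows.

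**Figure D2:**
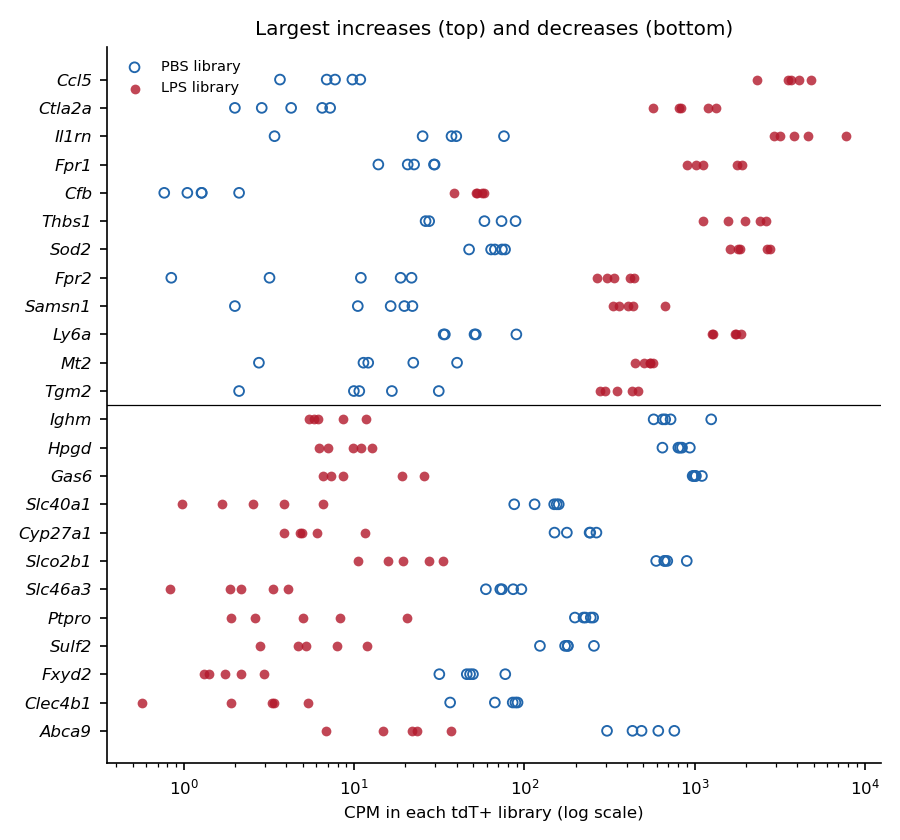
CPM (log scale) in each of the 10 tdT+ libraries for the 12 genes with the largest called increase and, under the line, the 12 with the largest called decrease among genes counted on both sides. Open blue circles are PBS libraries and filled red circles LPS libraries, and in every row the colours are apart.

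With at most 3 counts in every PBS library there were 140 members of the LPS side, and their folds are lower bounds against a floor of 3 counts per library. Saa3, an acute phase apolipoprotein made by macrophages (chromosome 7, 46711998 to 46715700), had at most 3 counts under PBS and stood at 28252, 29301, 30179, 27711 and 31603 CPM under LPS, at least 60408-fold higher. The neutrophil-attracting chemokines Cxcl3 and Cxcl5 were at 0 in all PBS libraries and reached 275 to 933 CPM (at least 1184-fold higher) and 96.6 to 426 CPM (at least 427-fold). Csf3, the granulocyte colony-stimulating factor G-CSF, was at 334, 274, 413, 156 and 533 CPM under LPS with a single count among the PBS libraries (at least 703-fold). The stromelysin Mmp3, at 72.0 to 372 CPM (at least 341-fold), and the guanine nucleotide exchange factor Plekhg4, at 92.5 to 246 CPM (at least 298-fold), complete the 6 most abundant of this kind.

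On the PBS side 8 members had at most 3 counts in every LPS library. A low level under LPS was a condition of this choice, so nothing is read from it. Tln2, the cytoskeletal linker talin 2, was at 34.7, 5.52, 17.6, 33.3 and 61.2 CPM under PBS and at 0 in all LPS libraries. Hepacam2 was at 10.5 to 25.4 CPM and at 0 (at least 63.3-fold lower), Tnfrsf17, the BAFF receptor family member BCMA, at 2.23 to 14.9 CPM and at most 0.156 CPM (at least 36.1-fold), Cd300ld2 at 2.43 to 7.90 CPM and at most 0.113 CPM (at least 15.6-fold) and Tm4sf5 at 2.12 to 5.88 CPM and at 0 (at least 15.4-fold). The calls of these 4 were each lost without any of the 5 LPS mice. Armc3, at 1.92 to 8.28 CPM and at most 0.170 CPM, was not called in the joint fit, but it was with the mouse block and without PBS mouse 179.

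In the lists that follow, counts and medians are over the genes counted on both sides, of which 3.53% were called higher and 4.47% lower over the whole table. Calls were more frequent among abundant genes. With a level averaging over 100 CPM across the 2 groups there were 1806 genes counted on both sides. Among them 223 were called higher and 211 lower (24% in all), and 51.4% did not overlap. Lists of abundant genes are to be read against these shares. Of 20 genes of the sensing list 1 was called higher and 1 lower, with a median log2 fold change of 0.65 (0.02 over all genes counted on both sides). The counts were 3 and 2 in the fit of the tdT+ libraries alone and 2 and 2 with the mouse block, and 2 were called lower without PBS mouse 178. Cd14, the LPS co-receptor, was at 1526, 1535, 1723, 2626 and 1390 CPM under PBS and at 8128, 6671, 6831, 4721 and 8266 CPM under LPS (log2 fold change 1.98 ± 0.20, adjusted p = 6e-07). Ly86, which encodes MD-1, the partner of the TLR4 homologue RP105, fell by 1.67 ± 0.23 on the log2 scale. Tlr4 itself was at 119 to 172 CPM and 118 to 214 CPM (log2 fold change 0.08 ± 0.50), and Ly96, which encodes MD-2, at 57.3 to 95.6 CPM and 41.0 to 57.0 CPM without being called (adjusted p = 0.22).

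Of 19 NF-kB genes Tnfaip3, the deubiquitinase A20 that ends NF-kB signalling, was the only one called higher, from 268 to 911 CPM to 1152 to 2074 CPM (log2 fold change 1.63 ± 0.34). A further gene was called higher without PBS mouse 179, and 2 more in the fit of the tdT+ libraries alone. Of the 2 called lower, Nfkbid, the nuclear inhibitor IkBNS, went from 114 to 460 CPM to 51.2 to 81.5 CPM (log2 fold change -2.36 ± 0.45), and the other call was lost without any mouse but PBS mouse 174. Nfkbia, which encodes IkB alpha, was at 685 to 1462 CPM and 1069 to 1704 CPM and was not called (adjusted p = 0.324). In the JAK, STAT and SOCS list 2 of 17 genes were called higher and none lower (1 higher without LPS mouse 54 or 61), against 4 and 1 in the fit of the tdT+ libraries alone. Of 3 counted on the LPS side only 1 was called. Socs3, the inhibitor of signalling through the shared receptor chain gp130, stood at 172, 201, 256, 496 and 258 CPM under PBS and at 1819, 1826, 1770, 1298 and 2047 CPM under LPS.

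Of 21 AP-1 and immediate early genes 2 were called lower and 1 higher, with a median of -0.41. The lower count was 4 in the fit of the tdT+ libraries alone. It was also 4 without PBS mouse 179 or LPS mouse 54 or 56, and 5 without PBS mouse 174. Atf3, a repressor that restrains Toll-like receptor responses, was at 736, 1354, 2068, 2173 and 1288 CPM under PBS and at 39.2, 47.4, 89.7, 71.8 and 116 CPM under LPS (log2 fold change -4.39 ± 0.32, adjusted p = 8.49e-09). Ier5 fell by 1.14 ± 0.24, and Dusp2, a phosphatase of MAP kinases, rose by 1.90 ± 0.32 on the log2 scale. Fos was at 4172 to 7374 CPM and 3985 to 5434 CPM and was not called.

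Among interferon regulatory and myeloid factors 3 of 28 genes were called higher and 5 lower. Irf7, the amplifier of type I interferon, was at 473, 124, 144, 111 and 142 CPM under PBS, mouse 174 standing above the other 4, and at 1451, 1369, 1636, 2041 and 2124 CPM under LPS (log2 fold change 3.12 ± 0.44). Irf1 fell from 299 to 608 CPM to 132 to 275 CPM (log2 fold change -1.35 ± 0.27). Maf, a transcription factor of resident macrophages, fell by 1.69 ± 0.25 on the log2 scale. Mef2c, a MADS-box factor, was at 463, 441, 512, 535 and 632 CPM under PBS and at 49.2, 36.2, 26.4, 50.1 and 21.6 CPM under LPS.

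Of 16 cytokine genes 4 were called higher and 2 lower, with a median of 0.97, and 7 were higher in the fit of the tdT+ libraries alone. Of 6 counted on the LPS side only 2 were called, Il1a and Csf3. Il1b was at 470, 515, 775, 990 and 434 CPM under PBS and at 1374, 1354, 1849, 1508 and 1305 CPM under LPS (log2 fold change 1.21 ± 0.24), a smaller change than that of its antagonist Il1rn. Il1a was counted on the LPS side only, at 192 to 501 CPM against 0 to 15.1 CPM. Ebi3, a subunit of IL-27 and IL-35, rose by 1.65 ± 0.30, while Il15, which sustains NK and memory T cells, fell by 2.74 ± 0.60 and Il16 by 1.91 ± 0.36 on the log2 scale. Tnf was at 118, 183, 280, 274 and 244 CPM under PBS and at 122, 104, 159, 75.5 and 156 CPM under LPS (log2 fold change -0.84 ± 0.35, adjusted p = 0.192), and the groups overlapped. Il10 was at 10.4 to 80.7 CPM and 23.7 to 57.5 CPM. Il6 did not overlap between groups, at 0 to 32.8 CPM and 94.7 to 365 CPM, and missed the threshold (adjusted p = 0.072) but passed it with the mouse block (0.0465) and without PBS mouse 174 (log2 fold change 3.59).

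In the CC list 6 of 10 genes were called higher and none lower, with a median of 1.51. The block fit and that of the tdT+ libraries alone added 2 called lower, and leaving out LPS mouse 54 added 1. The monocyte attractant Ccl2 was at 183, 416, 362, 643 and 301 CPM under PBS and at 1132, 818, 1165, 1298 and 1744 CPM under LPS (log2 fold change 1.69 ± 0.38). Ccl7 rose by 2.51 ± 0.31, Ccl3 by 2.50 ± 0.50 and Ccl4 by 2.29 ± 0.48 on the log2 scale. In the CXC list 1 of 6 genes was called higher and 1 lower, against 3 higher with the mouse block and in the fit of the tdT+ libraries alone. Of 7 counted on the LPS side only 3 were called, Cxcl3, Cxcl5 and Cxcl13. Cxcl2 was at 302, 857, 1603, 2013 and 1057 CPM under PBS and at 5170, 4012, 4648, 3444 and 4706 CPM under LPS. Cxcl13, the B cell attractant, was at most 6.92 CPM under PBS and at 4688, 1126, 1288, 1080 and 2251 CPM under LPS. Cxcl16, a membrane-bound ligand and scavenger receptor, fell by 1.22 ± 0.19, and the interferon-induced Cxcl10 was at 32.2 to 79.2 CPM and 45.4 to 192 CPM without being called.

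Of 29 cytokine and chemokine receptor genes 5 were called higher, Il4ra, Il6st, Il15ra, Fpr1 and Fpr2, and 6 lower, against 8 higher in the fit of the tdT+ libraries alone. Of 5 counted on the LPS side only 3 were called, and Cx3cr1 was called on the PBS side. Il1r1, the signalling IL-1 receptor and counted on the LPS side only, had at most 2 counts under PBS and was at 57.9 to 100 CPM under LPS (at least 162-fold higher). The decoy Il1r2, of the same side, was at 0 and then at 45.3 to 82.8 CPM (at least 125-fold). Il4ra rose from 256 to 492 CPM to 1359 to 1578 CPM, Il6st, which encodes gp130, by 2.75 ± 0.48 and Il15ra by 4.18 ± 1.0 on the log2 scale. Ccr2, whose locus drives the label, fell from 250, 160, 463, 274 and 240 CPM to 21.3, 10.9, 13.8, 22.6 and 9.65 CPM (log2 fold change -4.15 ± 0.33). Cx3cr1, the fractalkine receptor of resident macrophages, was counted on the PBS side only, at 556 to 1104 CPM against at most 3.36 CPM. Csf1r, the receptor that these cells need to survive, was at 6175, 6283, 5656, 5657 and 6189 CPM under PBS and at 1623, 1400, 1479, 1521 and 1056 CPM under LPS. Tgfbr2 fell by 2.10 ± 0.26 and Il10ra by 1.51 ± 0.28 on the log2 scale.

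Of 34 interferon-stimulated genes 15 were called higher and none lower, and the median was 1.61. For 24 of them the treatments did not overlap, with the higher level under LPS. The share without overlap among all genes counted on both sides, in either direction, was 28.0%, and 51.4% among those averaging over 100 CPM. The fit of the tdT+ libraries alone called 26 higher, and the joint fit called 9 without LPS mouse 60. Of 5 counted on the LPS side only 2 were called. The ISRE core stood within 250 bases before 14 of the 28 genes of the list, either side included, that have a window. Stretches around a match are shown for 4 called members, chosen after their values were seen, because this is the element through which interferon acts on these genes. Capitals mark 1 match to the core on either strand.
Ifit1, chr19:34640765-34640814, plus strand: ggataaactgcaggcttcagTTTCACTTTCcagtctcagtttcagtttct
Isg15, chr4:156200867-156200916, minus strand: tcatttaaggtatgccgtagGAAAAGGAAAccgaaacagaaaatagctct
Rsad2, chr12:26456543-26456592, minus strand: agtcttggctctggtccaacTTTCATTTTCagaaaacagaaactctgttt
Bst2, chr8:71537573-71537622, minus strand: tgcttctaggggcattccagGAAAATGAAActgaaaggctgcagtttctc

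Ifit1, which binds viral RNA and has 2 such matches in its window, was at 38.5, 50.5, 36.7, 12.7 and 20.2 CPM under PBS and at 221, 213, 380, 416 and 553 CPM under LPS (log2 fold change 3.49 ± 0.61, adjusted p = 0.000578). Isg15, a ubiquitin-like modifier with 3 matches, was at 59.7, 15.4, 13.0, 16.5 and 25.8 CPM and at 160, 97.2, 187, 264 and 266 CPM. PBS mouse 174 was the highest PBS library for Irf7, Isg15, Zbp1 (184 CPM against 52.4 to 75.9 CPM) and Usp18 (98.8 CPM against 41.6 to 53.5 CPM). LPS libraries lay above it for each of them. Zbp1, a sensor of Z-form nucleic acid, rose by 2.48 ± 0.56, Usp18, which removes ISG15, by 2.06 ± 0.47 and Phf11d by 2.36 ± 0.40 on the log2 scale.

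Of 11 immunity GTPases 2 were called higher and none lower, 1 of them without PBS mouse 175, 177 or 178 or LPS mouse 59, 60 or 61, and 5 were called in the fit of the tdT+ libraries alone. Their median was 0.98. Gbp2, a guanylate binding protein that coats bacteria, was at 159, 80.6, 32.5, 54.3 and 43.2 CPM under PBS and at 222, 268, 549, 482 and 867 CPM under LPS.

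Of 5 acute phase and antimicrobial genes 2 were called higher and 2 lower. The lower count was 1 without LPS mouse 54, 59, 60 or 61, and the higher count was 1 without these or without PBS mouse 175, 177 or 179. A further 12 were counted on the LPS side only, where 10 were called. Among these, Lcn2, the siderophore-binding lipocalin, had at most 2.77 CPM under PBS and stood at 4550, 8100, 7378, 6155 and 7031 CPM under LPS. Hp, haptoglobin, was present in PBS mouse 179 only (3.07 CPM) and at 385 to 966 CPM under LPS, and Saa1 was at 0 and then at 64.9 to 156 CPM (at least 227-fold higher). Lyz2, the macrophage lysozyme, fell from 12027, 10887, 12870, 12162 and 11598 CPM to 2104, 2164, 3148, 2468 and 2226 CPM (log2 fold change -2.30 ± 0.16, adjusted p = 4.68e-09). Several of these proteins are also made by neutrophils. The summed neutrophil list was at 510 to 688 CPM under PBS and 515 to 1173 CPM under LPS. Mmp9, a gelatinase, made up 503 of the mean sum of 619 CPM under PBS and was at 403 to 581 CPM and 65.0 to 403 CPM, and Csf3r, the G-CSF receptor, was at 77.6 to 164 CPM and 204 to 388 CPM. Neither of these 2, the only ones counted on both sides, was called in the joint fit, while the fit of the tdT+ libraries alone and the block fit called 1 higher and 1 lower. On the LPS side only, 2 of 3 were called, S100a8 (at most 9.20 CPM, then 100 to 465 CPM) and Mmp8 (at most 0.325 CPM, then 56.9 to 142 CPM). S100a9, the partner of S100a8, was at 0.115 to 14.6 CPM under PBS and at most 0.604 CPM under LPS and was not called (adjusted p = 0.153). The part of neutrophil RNA was not tested. Ly6g and Cxcr2 had at most 2 counts, Mpo none and Elane at most 1, and 7 of 16 markers had at most 3 counts in every library.

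Of 11 genes of itaconate, arginine and superoxide metabolism 2 were called higher, Sod2 among them, and none lower (median 0.45), and 1 was lower in the fit of the tdT+ libraries alone. Of 6 counted on the LPS side only 5 were called, the 4 that follow among them. Acod1, which makes itaconate, was at 1.46, 0, 0, 0 and 4.75 CPM under PBS and at 166, 163, 398, 193 and 395 CPM under LPS. Nos2, the inducible nitric oxide synthase, had 1 count in all PBS libraries and was at 13.4, 67.9, 56.9, 72.5 and 242 CPM under LPS (at least 186-fold higher). Arg1 and Arg2, the arginases that use the same substrate, were at 67.9 to 178 CPM against at most 1.15 CPM, and at 14.9 to 49.3 CPM against 0 (at least 59.8-fold higher).

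Of 21 iron handling genes 4 were called higher and 5 lower (median -0.22), and 2 of 3 were called on the LPS side only. Fth1 was at 6077, 5121, 5284, 4825 and 5211 CPM under PBS and at 33433, 34241, 38352, 31594 and 41629 CPM under LPS (log2 fold change 2.76 ± 0.14, adjusted p = 5.22e-11). Ftl1, the light chain, went the other way, from 1802 to 1941 CPM to 808 to 912 CPM (log2 fold change -1.13 ± 0.13). Slc11a1, the phagosomal metal transporter NRAMP1, rose by 1.74 ± 0.19, and Hfe and Ncoa4, the receptor that delivers ferritin to lysosomes, fell by 2.55 ± 0.28 and 2.12 ± 0.40 on the log2 scale.

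The metallothionein Mt1 went from 316 to 805 CPM to 1980 to 2764 CPM, and 2 of 9 genes of its list were called higher and none lower, with 1 of 7 called on the LPS side only. Of 18 NRF2 targets 2 were called higher and 3 lower (median 0.05), 1 lower without LPS mouse 61, and 2 of 3 were called on the LPS side only. Prdx6, a peroxiredoxin, was at 65.6, 45.6, 51.2, 83.3 and 56.7 CPM under PBS and at 724, 653, 837, 525 and 1075 CPM under LPS. Slc7a11, the cystine importer and counted on the LPS side only, was at most 2.08 CPM and then at 200 to 495 CPM, thioredoxin Txn1 rose by 1.58 ± 0.22, and catalase, Cat, fell by 2.43 ± 0.27 on the log2 scale.

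Of 21 glycolysis and hypoxia genes 11 were called higher and none lower, with a median of 1.62, the highest of the 33 pathway lists, and 1 was lower without PBS mouse 178 or 179 and in the fit of the tdT+ libraries alone. Of 7 counted on the LPS side only 1 was called, and neither of 2 on the PBS side. Pkm, pyruvate kinase, was at 167, 113, 104, 106 and 129 CPM under PBS and at 1404, 1088, 1198, 1304 and 1469 CPM under LPS (log2 fold change 3.39 ± 0.24, adjusted p = 5.73e-09). Hif1a, the hypoxia-inducible factor, was at 39.3 to 241 CPM and 1464 to 2263 CPM, and Pfkfb3, which makes the activator of phosphofructokinase, rose by 3.78 ± 0.61. The glucose transporter Slc2a1 rose by 3.01 ± 0.66, Gapdh by 1.91 ± 0.21 and Ldha, lactate dehydrogenase, by 1.74 ± 0.17 on the log2 scale. Of 77 respiratory chain subunits none was called higher and 1 lower (median 0.22). That gene, Atp5if1, encodes the inhibitor of the ATP synthase and fell by 1.71 ± 0.28. Of 80 cytosolic ribosomal proteins 3 were called lower and none higher (median -0.21), among them Rps27, which fell by 1.17 ± 0.27.

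Of 46 proteasome subunits 14 were called higher and none lower (9 without LPS mouse 61), with a median of 0.95. For 33 of them the treatments did not overlap, with the higher level under LPS. The share in either direction was 28.0% among all genes counted on both sides and 51.4% among those averaging over 100 CPM. The core subunit Psma6 was at 153, 138, 141, 117 and 143 CPM under PBS and at 396, 400, 405, 421 and 410 CPM under LPS (log2 fold change 1.55 ± 0.22). Psmd14, the deubiquitinase of the lid, rose by 1.63 ± 0.30 and the ATPase Psmc1 by 1.43 ± 0.32 on the log2 scale.

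In the class I list 5 of 23 genes were called higher and none lower (3 without LPS mouse 61), against 9 in the fit of the tdT+ libraries alone, with a median of 0.80. Tap1, the peptide transporter, went from 54.0 to 158 CPM to 244 to 510 CPM, the proteasome activator Psme2 rose by 1.45 ± 0.22 and the non-classical H2-Q7 by 2.61 ± 0.53. The abundant B2m and H2-K1 had adjusted p of 0.000366 and 0.000784 with log2 fold changes of 0.64 and 0.83, under the size needed for a call. In the class II list 6 of 13 genes were called lower and none higher, with a median of -1.58, the lowest of the pathway lists. Both genes counted on the PBS side only were called, Ciita among them. A single gene was called higher with the mouse block, in the fit of the tdT+ libraries alone and without PBS mouse 177.

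Ciita, the transactivator that sets class II transcription and counted on the PBS side only, was at 85.3 to 160 CPM under PBS and at 0, 0.0825, 1.60, 0.704 and 0.0567 CPM under LPS. H2-DMa, a subunit of the peptide editor, fell by 3.74 ± 0.27, H2-Eb1 by 2.56 ± 0.19, H2-Aa by 2.46 ± 0.16 and H2-Ab1 by 1.98 ± 0.17 on the log2 scale. Cd74 was at 56013, 39486, 42113, 32941 and 32239 CPM under PBS and at 13140, 14141, 16015, 10612 and 13744 CPM under LPS, where it was the third most abundant transcript by share of counts.

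Of 19 costimulatory and inhibitory genes 3 were called higher and 7 lower (median -0.53), and 6 were higher in the fit of the tdT+ libraries alone and 5 without PBS mouse 177. Of 2 counted on the LPS side only 1 was called. Pirb, a paired immunoglobulin-like receptor that binds class I molecules, was at 121 to 185 CPM and 1226 to 1442 CPM, and Siglece, a receptor for sialic acid, rose by 2.09 ± 0.22. That gene, Cd300lf, was at most 4.91 CPM under PBS and at 111 to 219 CPM under LPS. Lair1, the collagen receptor, fell by 3.51 ± 0.61, Cd300a by 2.07 ± 0.38 and Sirpa, which reads the CD47 signal, by 1.65 ± 0.16 on the log2 scale. Of 6 Fc receptor genes 4 were called higher and 1 lower. Fcgr4 was at 181, 102, 58.9, 76.0 and 96.5 CPM under PBS and at 1481, 1633, 1701, 1636 and 2032 CPM under LPS, Fcgr1 rose by 1.36 ± 0.24, and Fcgrt, the neonatal receptor that recycles immunoglobulin G, fell by 3.25 ± 0.28.

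Of 21 scavenger and efferocytosis genes 11 were called lower and 1 higher (median -1.56), and 2 of 3 were called on the LPS side only. Clec7a, the beta-glucan receptor dectin-1, was at 248, 131, 293, 252 and 178 CPM under PBS and at 7.47, 6.68, 13.8, 29.2 and 13.3 CPM under LPS. Trem2, the lipid receptor, fell by 3.12 ± 0.31 and Clec10a by 2.84 ± 0.32 on the log2 scale. Mrc1, which encodes the sorting marker CD206, was at 1661 to 3384 CPM and 916 to 1337 CPM (log2 fold change -1.40 ± 0.24). The gene that rose was Msr1, scavenger receptor A (179 to 474 CPM, then 1298 to 1980 CPM). Those called on the LPS side only were the Mincle family lectins Clec4d and Clec4e, at 291 to 584 CPM and 548 to 1115 CPM under LPS.

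Of 34 cathepsins and lysosomal hydrolases 11 were called lower and 3 higher, with a median of -0.70. Hexa, a hexosaminidase subunit, fell by 3.30 ± 0.29 from 1002 to 1143 CPM to 71.1 to 156 CPM. The cysteine protease Ctsl and its inhibitor Cstb rose by 2.44 ± 0.30 and 2.46 ± 0.24 on the log2 scale. In the complement list 4 of 16 genes were called lower and 2 higher (4 higher in the fit of the tdT+ libraries alone). C1qa was at 3543 to 5297 CPM and 1082 to 2323 CPM and C3ar1, the C3a receptor, fell by 1.53 ± 0.25, while Itgam, a chain of complement receptor 3 and the CD11b of the sort, rose from 159 to 234 CPM to 975 to 1187 CPM.

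Of 18 lipid efflux and storage genes 6 were called lower and 1 higher (2 higher with the mouse block, in the fit of the tdT+ libraries alone and without PBS mouse 174 or LPS mouse 56), with 1 of 5 called on the LPS side only. Lpl, the lipoprotein lipase, was counted on the PBS side only and called, at 919, 322, 754, 582 and 325 CPM against 0.604 to 10.1 CPM. Cd36, the fatty acid receptor, fell by 2.83 ± 0.38 and Apoe by 1.78 ± 0.20, whereas Plin2, which coats lipid droplets, rose from 343 to 498 CPM to 1494 to 2085 CPM (log2 fold change 2.16 ± 0.19). None of 18 cholesterol synthesis genes was called in the joint fit, with 2 higher and 1 lower in the fit of the tdT+ libraries alone.

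Of 16 eicosanoid enzyme genes 2 were called higher and 5 lower (median -0.40), with 2 of 3 called on the LPS side only. The inducible cyclooxygenase Ptgs2 was at 10.2, 1.70, 68.5, 155 and 47.8 CPM under PBS and at 653, 626, 745, 495 and 834 CPM under LPS (log2 fold change 3.57 ± 0.88, and 4.36 without PBS mouse 178). The constitutive Ptgs1 fell by 3.04 ± 0.38, the thromboxane synthase Tbxas1 by 3.12 ± 0.35 and Alox5, which starts leukotriene synthesis, by 2.61 ± 0.52 on the log2 scale. Ltc4s, the leukotriene C4 synthase and counted on the PBS side only, was at 40.9 to 54.3 CPM under PBS and 0.113 to 0.990 CPM under LPS.

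Of 30 inflammasome and cell death genes 6 were called higher and none lower (median 0.36), 1 lower without PBS mouse 174 and 3 lower in the fit of the tdT+ libraries alone. Of 9 counted on the LPS side only 2 were called, Mefv among them. The adaptor Pycard was at 28.8 to 59.9 CPM and 257 to 306 CPM (log2 fold change 2.72 ± 0.41), and Mefv, which encodes pyrin, at 0 and 21.6 to 71.1 CPM (at least 82.5-fold higher). The survival genes Bcl2a1a and Bcl2l1 rose by 2.11 ± 0.47 and 1.85 ± 0.43. The death genes Bax and Gsdmd were also called higher, by 1.19 ± 0.30 and 1.15 ± 0.30. The survival genes Bcl2, Mcl1, Bcl2a1b and Bcl2a1d were not called. In the list of endoplasmic reticulum stress, 1 of 23 genes was called higher and 1 lower (2 higher with the mouse block and without PBS mouse 174, 175 or 177 or LPS mouse 56 or 59, and 2 lower without PBS mouse 174 and in the fit of the tdT+ libraries alone), Manf, a secreted chaperone (1.18 ± 0.24), and Herpud1, of protein degradation (-1.32 ± 0.19).

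Of 24 genes of matrix, adhesion and growth factors 6 were called higher and 2 lower (median -0.21). The fit of the tdT+ libraries alone called 8 lower. Of 16 counted on the LPS side only 8 were called, Mmp3, Mmp19 and Timp1 among them. Mmp14, the membrane-type metalloproteinase, was at 67.0, 53.1, 24.1, 67.0 and 73.6 CPM under PBS and at 727, 695, 1027, 671 and 1106 CPM under LPS. Mmp19 was at 337 to 514 CPM against at most 9.58 CPM. Of the inhibitors of these enzymes, Timp1 was at most 2.41 CPM and then at 199 to 244 CPM, and Timp2 fell by 1.86 ± 0.25. Cd44, the hyaluronan receptor, rose by 3.03 ± 0.51 and Plaur, the urokinase receptor, by 3.71 ± 0.53 on the log2 scale. Igf1, the growth factor, fell from 180, 354, 779, 449 and 477 CPM to 8.75, 18.7, 31.0, 6.57 and 32.8 CPM.

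**Figure D3:**
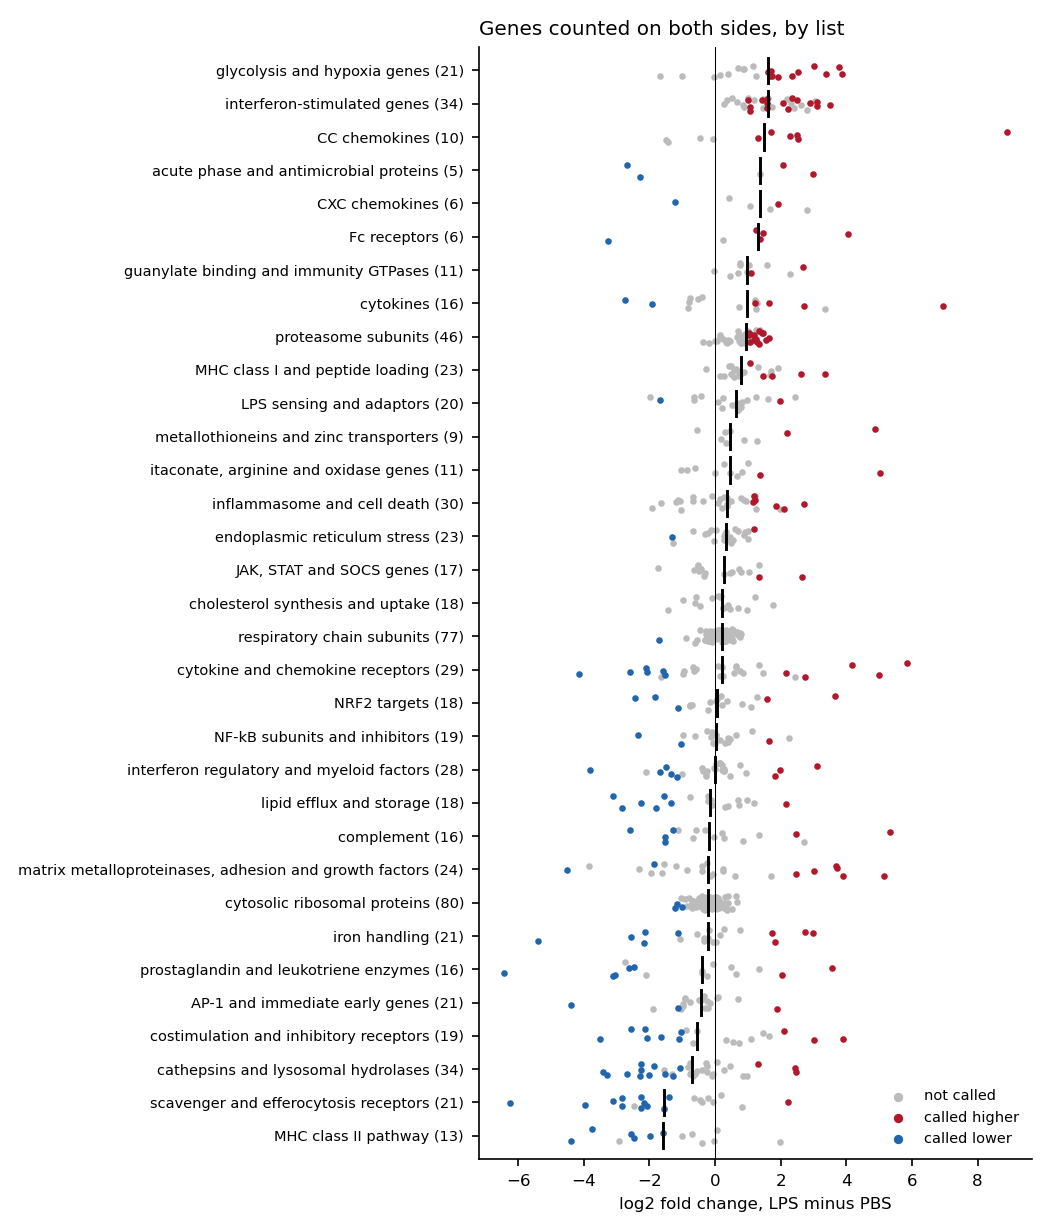
Log2 fold change (LPS minus PBS) of genes counted on both sides in 33 pathway lists, ordered by the list's median (black bar), with the number of such genes in brackets. Red points were called higher, blue points lower and grey points not called. Glycolysis and interferon-stimulated genes have the highest medians (1.62 and 1.61), and class II and scavenger genes the lowest (-1.58 and -1.56).

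Of 23 border macrophage markers 12 were called lower and 2 higher (median -1.35), Stab1, a scavenger receptor (-2.25 ± 0.23), among the former and Cd38 among the latter. Cd38 was at 286, 354, 651, 582 and 249 CPM under PBS and at 6566, 5359, 6572, 5951 and 6577 CPM under LPS. Of 7 monocyte markers 1 was called higher, Ms4a4c (3.61 ± 0.46), and 3 lower, Ccr2, Lsp1 and Gpx1, with a median of -1.13, and 2 were higher in the fit of the tdT+ libraries alone and without PBS mouse 175. Of 8 counted on the LPS side only 4 were called, and the marker of the PBS side, S100a4, was called. The summed level of the list was at 902 to 1291 CPM and 1997 to 3188 CPM. Ms4a4c made up 75.7 of the mean sum of 1086 CPM under PBS and 926 of that of 2651 CPM under LPS. Hp, counted on the LPS side only and also on the acute phase list, made up 0.613 and 737 CPM of these sums. Vcan, versican, of the LPS side, was at 0 under PBS and at 15.5 to 32.5 CPM under LPS (at least 50.4-fold higher). The part of added monocytes in the response was not tested.

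The dendritic cell list was at 493 to 782 CPM and 546 to 778 CPM, with 1 of 4 genes called each way, and that called higher was not without PBS mouse 175 or 177 or LPS mouse 54, 60 or 61. The one called lower was Siglech, a sialic acid receptor also listed for microglia (171 to 324 CPM, then 2.81 to 25.1 CPM). T, NK and innate lymphoid genes summed to 53.5 to 135 CPM and 17.4 to 74.3 CPM, where the 1 gene counted on both sides was not called in the joint fit but was lower without PBS mouse 177, with the mouse block and in the fit of the tdT+ libraries alone, and 2 of 3 were called on the LPS side only. Fibroblast genes summed to 457 to 922 CPM and 233 to 633 CPM with none of 7 called (1 higher and 2 lower in the fit of the tdT+ libraries alone). Endothelial genes summed to 26.6 to 68.2 CPM and 7.10 to 20.8 CPM. Cldn5 had at most 1 and Kdr at most 3 counts, while Pecam1, also carried by leukocytes and counted on the LPS side only, was at 3.58 to 18.8 CPM (at least 23.6-fold higher) and Egfl7, counted on the PBS side only, was at 26.0 to 66.0 CPM and then at most 1.48 CPM. The microglia list summed to 1547 to 2227 CPM and 849 to 1205 CPM. Of its 8 genes 4 were called lower (7 in the fit of the tdT+ libraries alone) and 1 higher, Gpr34 falling by 3.87 ± 0.50 and Tmem119, which marks microglia in the parenchyma, rising from 56.2 to 115 CPM to 440 to 772 CPM, with Sall1 at no more than 1 count. None of 8 cycling genes was called (201 to 317 CPM and 159 to 223 CPM), and no erythroid and 1 mast cell gene was counted. Neither of 2 osteoclast genes was called in the joint fit, 1 was higher without PBS mouse 177 or 178, and 1 was called each way with the mouse block and in the fit of the tdT+ libraries alone.

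**Figure D4:**
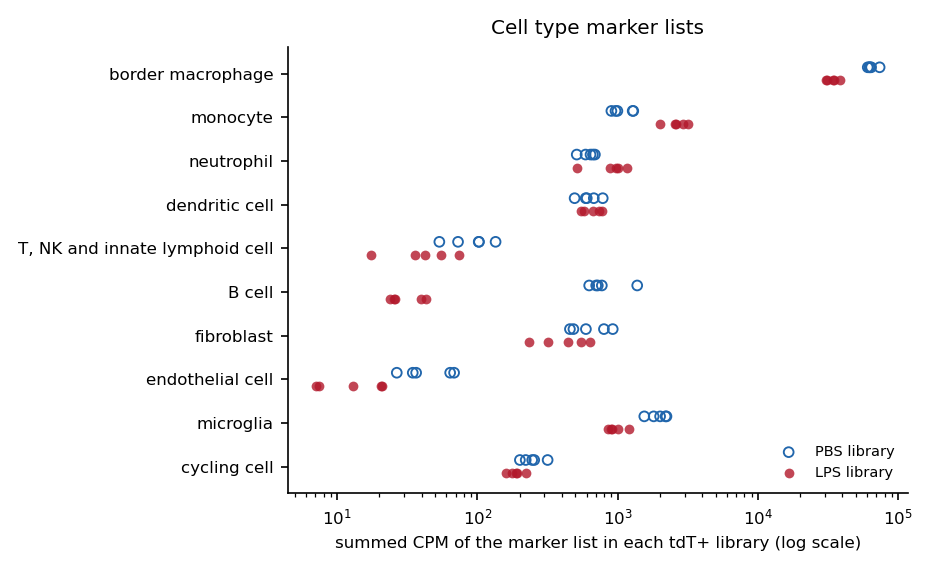
Summed CPM (log scale) of 10 cell type marker lists in each tdT+ library, open blue circles for PBS and filled red circles for LPS. Border macrophage and B cell sums are lower in every LPS library than in every PBS library, monocyte sums are higher in every LPS library, and dendritic cell sums overlap.

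The tdT- cells of the same mice are the population most like these. Of the 877 called members 627 were also called in the same direction in tdT- cells and none in the opposite direction, from separate libraries of the same mice. Over all genes tested this held for 681 of 979 called. Among called genes counted on both sides it held for 449 of 637. Counted apart, it held for 141 of 196 on the LPS side only and 37 of 44 on the PBS side only. The difference of the 2 LPS effects was called for 15 members in the positive direction (15 of all genes tested, 0.0902%) and 185 in the negative direction (194 of all genes tested, 1.17%). Split by side, these were 9 and 87 among genes counted on both sides, 6 and 91 on the LPS side only and 0 and 7 on the PBS side only. Over all members the block fit gave 20 and 599. The positive count fell to 2 without LPS mouse 54 and to 1 without any other LPS mouse and rose to 53 without PBS mouse 175, and the negative count ranged from 62 without LPS mouse 61 to 547 without PBS mouse 175.

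Plac8, a gene of monocytes and other leukocytes, was at 0, 0, 0, 1.26 and 0 CPM in tdT+ and at 377, 46.4, 32.0, 18.3 and 21.6 CPM in tdT- PBS libraries. Under LPS it was at 40.8 to 70.4 CPM in tdT+ and 77.3 to 302 CPM in tdT- libraries, a difference of effects of 7.14 ± 1.45 that rested on single PBS mice (11.96 without mouse 178 and 5.16 without mouse 174). Mcemp1, a membrane protein of mast and myeloid cells, was at 0 to 4.22 CPM and 16.6 to 476 CPM under PBS and at 171 to 356 CPM and 225 to 356 CPM under LPS (5.76 ± 1.26, and 4.71 without PBS mouse 174). Samsn1 was at 16.4, 10.5, 19.7, 22 and 1.99 CPM in tdT+ and at 31.9 to 200 CPM in tdT- PBS libraries, and at 334 to 666 CPM and 380 to 578 CPM under LPS (3.23 ± 0.66, adjusted p = 0.0144, but 0.0571 with the mouse block). Srgn, the granule proteoglycan serglycin, rose by 2.90 ± 0.22 in tdT+ and by 1.51 in tdT- cells, and the nuclear transport GTPase Ran rose in tdT+ cells from 47.9 to 73.7 CPM to 118 to 154 CPM while it was at 115 to 154 CPM and 106 to 130 CPM in tdT- cells. Tnfsf9, the ligand of 4-1BB, was not called in tdT+ cells (0.73 ± 0.36) and fell by 2.37 in tdT- cells. The calls of Plac8, Samsn1, Srgn, Mcemp1 and Ran were lost without LPS mouse 56, 59, 60 or 61, with differences of 6.88 to 7.13, 3.14 to 3.30, 1.35 to 1.44, 5.68 to 5.84 and 1.36 to 1.45, and those of the last 4 also without LPS mouse 54.

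Csf1r fell by more in tdT+ cells, by 2.08 ± 0.18 against 0.99, a difference of -1.09 ± 0.24 (adjusted p = 0.0234). Under LPS both populations stood close together, at 1056 to 1623 CPM and 1063 to 1717 CPM, and under PBS apart, at 5656 to 6283 CPM in tdT+ and 1796 to 3799 CPM in tdT- libraries. The call was lost without PBS mouse 174 and without any LPS mouse, with differences from -1.17 to -0.997. The 6 members with the smallest p in the negative direction, Aacs, Scaf4, Ccdc71, Mppe1, Fbxl4 and Cipc, were not called for LPS in tdT+ cells. They were at 0 to 0.246 CPM in every tdT- PBS library and at 7.80 to 52.5 CPM in every tdT- LPS library, so the size of their differences is set by the fit at counts near 0 and is no measured size. Aacs was at 8.88 to 38.6 CPM and 23.5 to 42.3 CPM in tdT+ cells under PBS and LPS.

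**Figure D5:**
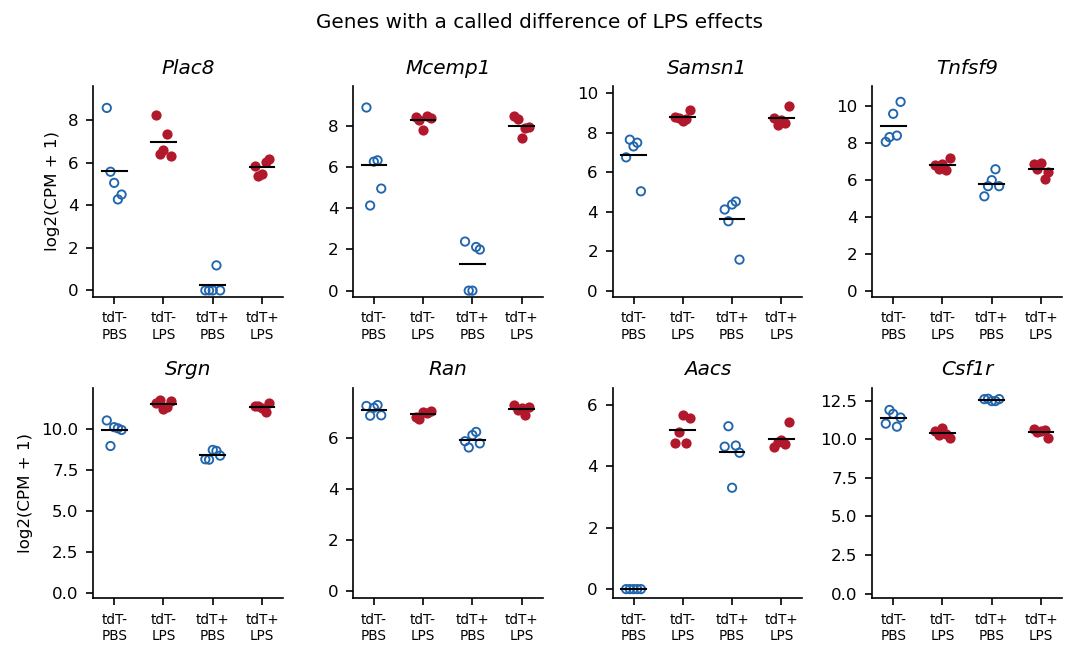
Log2(CPM + 1) in each of the 20 libraries for 8 genes with a called difference of LPS effects, in tdT- PBS, tdT- LPS, tdT+ PBS and tdT+ LPS libraries. Open blue circles are PBS, filled red circles LPS and black bars group means. For Plac8, Mcemp1, Samsn1, Srgn and Ran the mean of the tdT+ PBS group is the lowest of the 4, for Csf1r it is the highest, and for Aacs every tdT- PBS library is at 0.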

How the data were processed

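The authors deposited raw gene counts, not normalized, from SMART-Seq libraries without molecular identifiers. Per the labels' processing notes they used bcl2fastq 2.20, STAR 2.7.11a, featureCounts 2.0.6 and DESeq2 1.46.0. The genome build is not clear from the sources used here, so RefSeq sequences are credited to their own build. CPM were computed from the deposited counts with TMM scaling. In R 4.3.3 with edgeR 4.0.16, genes with at least 10 counts in total entered 1 quasi-likelihood fit of all 20 libraries (adjusted p under 0.05, Benjamini-Hochberg, and absolute log2 fold change over 1). SE is the absolute log2 fold change over the root of F. Same-numbered tdT+ and tdT- libraries came from the same animal. Their deviations correlated at 0.228 to 0.449 for LPS and -0.0046 to 0.0461 for PBS mice. Replicates are mice. Named genes were the 12 largest called changes in each direction among genes counted on both sides without overlap, up to 6 on each side with at most 3 counts in every library of the other, the leading differences from tdT- cells, and genes of the fixed lists. Calls per list were counted over genes with the minimum on both sides, a choice made after seeing the data. The members and lists were chosen with earlier results of these data known. Alternatives were DESeq2 1.42.0, RLE scaling, no filter, tdT+ libraries alone, a mouse block, limma 3.58.1 voom with quality weights, the title letter as a term, thinned libraries, other count minimums and leaving out each mouse. The voom span of 0.1 was chosen after seeing the data. Fits were tested on simulated data. Some results are not reported here. Reads without molecular identifiers are not independent molecules, and p-values for LPS against PBS cover the spread between mice. The joint fit has no term for the mouse and treats the 20 libraries as independent. Its p-values for the difference of LPS effects thus leave out the pairing of tdT+ and tdT- libraries.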

Additional observations from a re-analysis of the deposited data

Results flagged for a closer look

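In 347 groups of 5 libraries, 22 had a library far from the other 4 (15 in PBS and 7 in LPS), where chance gives about 1 in 20 groups. Values are CPM in tdT+ libraries. PBS mouse 174 was apart for Ighm (1252), Irf7 (473), Isg15 (59.7), Zbp1 (184), Usp18 (98.8) and Apoe (31471). PBS mouse 178 was apart for Cd14 (2626), Socs3 (496), Arg1 (1.15) and Plac8 (1.26). PBS mouse 179 was apart for Cd300ld2 (7.90), Hp (3.07) and S100a8 (9.20), and PBS mouse 177 for Lcn2 (2.77) and Slc7a11 (2.08). Among LPS mice the libraries apart were 54 for Plekhg4 (246), 60 for Cyp27a1 (11.6) and Mt1 (1980), 59 for Il4ra (1359) and Pirb (1442), 61 for Nos2 (242) and 56 for Cd79b (25).

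For 14 of the named genes the interaction term of the joint fit was called. In log2 units the effect in tdT+ minus that in tdT- cells was 3.23 for Samsn1, 2.69 for Saa3, 3.09 for Tnfsf9, 7.14 for Plac8, 1.39 for Srgn, 5.76 for Mcemp1 and 1.38 for Ran. It was -1.09 for Csf1r. The fit gave -11.38 for Aacs, -8.83 for Scaf4, -11.10 for Ccdc71, -11.63 for Mppe1, -8.43 for Fbxl4 and -9.62 for Cipc, whose tdT- PBS libraries were at 0 to 0.246 CPM. These fitted sizes depend on the prior count and are no bounds, and that of Aacs was -8.69 with the mouse block and that of Scaf4 -9.83 without PBS mouse 177. The values of Plac8, Saa3 and Mcemp1 likewise rest on tdT+ PBS libraries at or near 0, so their sizes are set in part by the fit. The difference of Saa3 had an adjusted p of 0.0322, and of 0.309 with the mouse block.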

How the results depend on the processing

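Of 183 named genes tested for the LPS effect 171 were called, and 164 of these kept direction and call under all 18 settings (10 mice left out in turn and 8 others). Many of these genes were named for large called changes in the same libraries. Their stability is partly set by that choice and does not extend to the other members. The count of members called higher, 477, was 1019 in the fit of the tdT+ libraries alone, 878 with mouse as a replicate block, 1518 with quality weights and 360 to 532 without single mice. The count called lower, 400, was 660 with DESeq2, 1025 in the tdT+ libraries alone, 1031 with quality weights, 508 with the block and 301 to 470 without single mice. The 15 positive differences became 111 with DESeq2, 9 without a filter and 1 to 53 without single mice, and the 185 negative ones 464 with DESeq2, 599 with the block and 62 to 547 without single mice. The causes were not tested. Of the counts per list and direction over genes counted on both sides, 34 moved by over 1.5 times or from or to 0 in the tdT+ libraries alone, 30 with quality weights, 13 with DESeq2, 12 with the block and at most 3 under each of the other settings that keep all mice. The 2 AP-1 genes called lower were 4 with DESeq2, RLE scaling, no filter or thinned libraries and 6 with quality weights. The log2 fold change of Tlr4, 0.08, was -0.0203 without PBS mouse 174, -0.0308 without LPS mouse 60 and at most 0.167 without single mice. LPS libraries were deeper than PBS libraries, and genes low under PBS are limited by that depth. The default voom span gave a trend below 0, so a span of 0.1 was used, chosen after seeing the data.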
